A study of Mus musculus with 6 samples.

Results

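The 10 genes described here belong to the Notch pathway: the receptors Notch1, Notch2, Notch3 and Notch4, the ligands Jag1, Jag2 and Dll4, and the target genes Hes1, Hey1 and Heyl. They were taken by gene symbol from a table of 52459 genes, and all 10 were found and were counted often enough to be tested, among 17032 genes that were. RNA-Seq was performed on the livers of 6 male C57BL6J mice of the Alb-Cre/Cas9 F1 generation at 8 months of age, of which 3 carried a control guide (sgCTRL, numbered 5.1, 7.1 and 7.2) and 3 a guide targeting Prdx2 (sgPrdx2, numbered 1.1, 1.3 and 3.2). In both groups Cre was driven by the albumin promoter, so that Cas9 was switched on in hepatocytes, and the guide was carried by an AAV8 vector (AAV8-U6-sgCtrl or AAV8-U6-sgPrdx2) injected at 4 to 5 weeks of age. All 6 mice also received diethylnitrosamine (DEN), a liver carcinogen, at 100 mg/kg 3 weeks after the vector and, from 1 week later, 6 months of CDAHFD, a choline-deficient high-fat diet, so that no healthy liver is among them.

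Notch receptors are membrane proteins that are activated by ligands on neighbouring cells. Ligand binding lets proteases release the intracellular part of the receptor, which enters the nucleus, binds the DNA-binding protein RBPJ and switches on target genes, foremost the HES and HEY repressors. In the liver, the pathway is best known for forming the bile ducts, where JAG1 and NOTCH2 are needed, for the blood vessels, where DLL4, NOTCH1 and NOTCH4 act in endothelial cells and NOTCH3 in the smooth muscle and pericytes around them, and for a fibrogenic response of hepatocytes in fatty liver disease.

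Among the 10 genes, Notch3 fell to 49.98% of its level in the sgCTRL livers, with a fitted log2 fold change of -1.001 (standard error 0.21, n = 3 per group) and an adjusted p of 0.0471 in the quasi-likelihood test of edgeR, adjusted over all tested genes by Benjamini-Hochberg. It was the only 1 of the 10 called at an adjusted p under 0.05. Across all tested genes, 3.33% were called in either direction and 1.54% were called lower. Notch4 and Jag1 also had all sgPrdx2 livers below all sgCTRL livers but did not pass the test, while the target gene Hes1 was the only member with a mean above that of the sgCTRL livers. Altogether 3 of the 10 genes, against 17.5% of all tested genes, had their 3 sgPrdx2 livers below their 3 sgCTRL livers, and none had them above (16.7% of all tested genes did). The fitted log2 fold change was below 0 for 9 of the 10, with a median of -0.29, against -0.02 over all tested genes. Without sgPrdx2 liver 3.2, which stood apart as described further on, it was below 0 for 7 of the 10. In that fit Notch3 was no longer called by edgeR (adjusted p = 0.0604), which called 3.53% of all tested genes. DESeq2 without this liver, a setting added after seeing the data, called Notch3 (adjusted p = 0.00254) and 14% of all tested genes.

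The sequence just upstream of the 3 genes whose groups did not overlap, of which only Notch3 was called, is printed. It comes from the 250-base windows before the gene starts of RefSeq (GRCm38.p6), read in the direction of the gene and cut where they reach the gene as annotated by GENCODE, which left 250 bases at chr17:32166891-32167140 (minus strand) for Notch3, 223 bases at chr17:34564045-34564267 (plus strand) for Notch4 and 126 bases at chr2:137116645-137116770 (minus strand) for Jag1. Of the 10 genes, 7 had a 250-base window (Hes1, Hey1 and Heyl were not matched). Only the printed sequences were cut, and the motif counts and GC content below use the uncut windows. Those of Notch1 and Jag2 lie wholly within the gene as annotated by GENCODE. Capitals mark CACGCG on either strand, a sequence that HES and HEY proteins can bind.
Notch3: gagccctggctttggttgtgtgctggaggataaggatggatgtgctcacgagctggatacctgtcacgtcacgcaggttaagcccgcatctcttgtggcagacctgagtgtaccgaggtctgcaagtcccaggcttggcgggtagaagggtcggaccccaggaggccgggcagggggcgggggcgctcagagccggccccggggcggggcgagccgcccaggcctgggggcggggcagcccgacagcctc
Notch4: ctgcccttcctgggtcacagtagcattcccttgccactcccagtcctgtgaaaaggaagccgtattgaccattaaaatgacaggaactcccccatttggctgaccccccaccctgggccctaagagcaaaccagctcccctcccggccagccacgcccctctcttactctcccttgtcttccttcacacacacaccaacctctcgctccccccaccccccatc
Jag1: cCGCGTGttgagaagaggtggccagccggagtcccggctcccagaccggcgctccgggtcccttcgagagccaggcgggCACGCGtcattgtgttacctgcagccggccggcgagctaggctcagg
CACGCG was found 2 times in the window of Jag1, on opposite strands, and in neither Notch3 nor Notch4. Among the 7 genes it was present in 3 (Jag1, Notch2 and Dll4), against 7.62% of all 32851 windows of this length. The windows of the 7 genes had a GC content of 57.2% to 87.2%, all above the median of 52.4% over all windows. GTGGGAA, the core of the RBPJ binding sequence, and CACGTG, which HES and HEY proteins can also bind, were searched on both strands and were in none of the 7 windows, against 5.42% and 6.02% of all windows. A match of letters is a description of the window and not a measured binding site.

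The libraries held 37462102 to 56865293 counts each, and 3 counts, taken as the limit of detection, stand for 0.0555 to 0.0921 CPM (the usual count unit of RNA-Seq, scaled to a common library size after TMM normalisation) in a liver, which covers counting error only. All 10 genes were well above this limit, the least with 52 counts (Jag2 in sgPrdx2 liver 1.1). Prdx2 itself, the targeted gene, was at 119 ± 11.6 CPM in the control livers and 120 ± 26.1 CPM in those with its guide (SD, n = 3 each, adjusted p = 0.983), so that its RNA level does not check the labels. Alb, the hepatocyte product albumin, was at 58815 to 62569 CPM in sgCTRL and 97610 to 128017 CPM in sgPrdx2 livers. sgPrdx2 liver 3.2 stood apart: its 2482 tested genes with 8000 or more bases of exon had a median deviation of -0.33 on the log2 scale from the mean of the 6 livers, against 0.01 to 0.16 in the other 5, and its genes of up to 2000 bases had 0.27, against -0.13 to -0.01. The receptor genes are long (8061 to 14232 bases of exon), and this liver was the lowest of the 6 for 8 of the 10 genes (the exceptions were Jag2 and Hes1), so the fold change of each of the 10 genes is also given without it.

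Levels between genes were compared as CPM per kb of exon. Hes1 had the highest level in sgCTRL livers, at 14.9 ± 3.09 CPM per kb (SD, n = 3), followed by Notch2 at 5.06 ± 0.44, Jag1 at 3.27 ± 0.17 and Notch1 at 1.92 ± 0.41. Each of these first 3 stood above the next gene without overlap among the sgCTRL livers. The length used covers all annotated exons, which for Notch1 is 14232 bases, whereas its longest transcript has 9488 bases. The distance of Notch1 from its neighbours in this order therefore depends on the length used. Notch1, Heyl (1.65 ± 0.39), Dll4 (1.16 ± 0.25) and Hey1 (0.97 ± 0.17) formed a series in which neighbours overlapped. Below them came Notch3 at 0.73 ± 0.10 and Notch4 at 0.68 ± 0.07, which overlapped with each other, and Jag2 was lowest at 0.33 ± 0.14. The order was the same in sgPrdx2 livers but for 1 exchange: Notch3, at 0.36 ± 0.07 CPM per kb, was below Notch4, at 0.51 ± 0.07, and their ranges of 0.31 to 0.44 and 0.45 to 0.58 did not overlap.

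**Figure D1:**
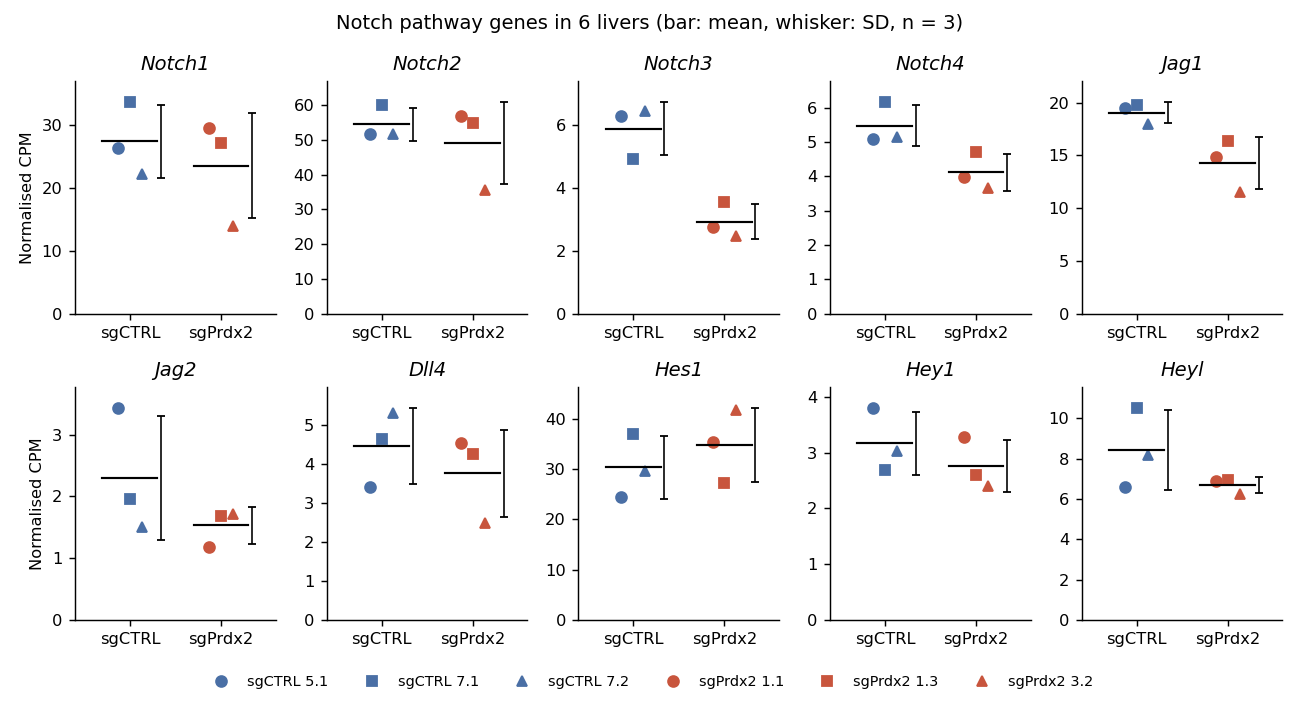
Normalised counts (CPM, vertical axes from 0) of the 10 Notch pathway genes in each of the 3 sgCTRL and 3 sgPrdx2 livers. Horizontal bars are group means and whiskers SD (n = 3). Notch3, Notch4 and Jag1 are the genes whose 2 groups do not overlap, and sgPrdx2 liver 3.2 (red triangle) is the lowest of the 6 livers for 8 of the 10 genes, the exceptions being Jag2 and Hes1.

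Of the receptors, Notch3 (chr17:32120820-32166852, minus strand, GRCm38) is the one known for smooth muscle cells and pericytes of vessels. Its counts were 275, 221 and 340 in sgCTRL livers 5.1, 7.1 and 7.2, against 121, 192 and 81 in sgPrdx2 livers 1.1, 1.3 and 3.2. After normalisation these were 6.28, 4.92 and 6.47 CPM and 2.76, 3.55 and 2.49 CPM. The highest sgPrdx2 liver was thus below the lowest sgCTRL liver, and liver 3.2 was close to liver 1.1. The 95% interval of the log2 fold change was -1.47 to -0.53. Without liver 3.2 the log2 fold change was -0.89 (adjusted p = 0.0604, edgeR), and the call was lost on leaving out any 1 of the 6 livers (log2 fold changes of -1.15 to -0.89, adjusted p of 0.0550 to 0.168). In the fits without sgCTRL liver 5.1 or 7.2, or sgPrdx2 liver 1.1 or 1.3, edgeR called 0 of all genes. Over all 16 alternatives its adjusted p ran from 7.70e-04 (DESeq2, which called 12.4% of all tested genes) to 0.168.

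In the annotation, 6.03% of the exon bases of Notch3 also lie in Gm17276 on the opposite strand, and whether the authors counted by strand is not given in the sources used here. Only 0.0879% of the 50-base stretches of its transcript occur in another gene.

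Because the samples were whole livers, fewer cells of a type and less RNA per cell cannot be told apart. Of 9 markers of smooth muscle cells and pericytes, 8 had a log2 fold change below 0 and none was called by edgeR, with a median of -0.26, and their summed level was 234.6 to 286 CPM in sgCTRL and 169 to 219 CPM in sgPrdx2 livers. Myh11, the myosin of smooth muscle, was at 32.5, 7.94 and 5.80 CPM in sgCTRL and 3.01, 3.05 and 5.47 CPM in sgPrdx2 livers, without overlap (-2.01 on the log2 scale, adjusted p = 0.114). Within the sgCTRL livers it was highest in liver 5.1, where Notch3 (6.28 CPM) was close to that in liver 7.2 (6.47 CPM). Tagln, an actin-binding protein of smooth muscle, and Mcam, a surface protein of pericytes and vessels, also had all sgPrdx2 livers below all sgCTRL livers, with -0.77 (adjusted p = 0.0912) and -0.72 (adjusted p = 0.117). Only these 3 of the 9 markers had no overlap, against 17.5% of all tested genes that were lower in this way. Among the markers with overlap, Kcnj8 was at 0.21, Mylk at -0.03 and Cspg4 at -0.11. For stellate cells and myofibroblasts, 10 of 12 markers were below 0 and none was called by edgeR, with a median of -0.49 and sums of 2403 to 2762 CPM in sgCTRL and 1754 to 1843 CPM in sgPrdx2 livers. The fold change of Acta2, the actin of myofibroblasts and smooth muscle, was -1.49 on the log2 scale (adjusted p = 0.0584, edgeR). In the same list, 7 of 12 markers had all sgPrdx2 livers below all sgCTRL livers, while Des (0.03) and Reln (0.15) were above 0. No marker of either list was at 0, but Cnn1 of the smooth muscle list was at the limit of detection in sgPrdx2 liver 1.1 (0.0684 CPM). Cnn1 had -3.92 on the log2 scale (adjusted p = 0.125, edgeR) with overlap. It was at 9.32 CPM in sgCTRL liver 5.1, against 0.645 and 0.438 CPM in livers 7.1 and 7.2. The part of these cells in the lower Notch3 level was not tested.

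Notch4 (chr17:34564268-34588503, plus strand) is a receptor made mainly by endothelial cells. It was at 5.09, 6.16 and 5.16 CPM in the sgCTRL livers and 3.99, 4.70 and 3.65 CPM in the sgPrdx2 livers, so that the groups did not overlap. The log2 fold change was -0.41 (standard error 0.18, 95% interval -0.81 to -0.00303) with an adjusted p of 0.198 (edgeR), and without liver 3.2 it was -0.32. With counts scaled to library totals alone, which places the median of all genes at -0.39, Notch4 reached -0.77 and an adjusted p of 0.0412.

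Notch1 and Notch2 were the most abundant receptors by counts. Notch1 (chr2:26457903-26516663, minus strand), the receptor that acts with Dll4 in vessels, was at 26.3, 33.6 and 22.2 CPM in sgCTRL and 29.6, 27.0 and 13.9 CPM in sgPrdx2 livers. Notch2 (chr3:98013527-98150361, plus strand), the receptor of bile duct formation, was at 51.8, 60.0 and 51.7 CPM in sgCTRL and 56.8, 55.0 and 35.6 CPM in sgPrdx2 livers. In both genes, livers 1.1 and 1.3 lay within the range of the sgCTRL livers and liver 3.2 alone was below it, at 49.3% (Notch1) and 63.6% (Notch2) of the mean of livers 1.1 and 1.3. Their log2 fold changes of -0.22 (standard error 0.28, adjusted p = 0.660) and -0.15 (standard error 0.19, adjusted p = 0.655) turned to 0.06 and 0.05 without liver 3.2. After a correction for transcript length and GC content they were -0.06 and -0.0018. In the annotation, 3.86% of the 50-base stretches of Notch2 also lie in Gm42820, and 7.504% of the exon bases of Notch1 overlap 0610009E02Rik on the opposite strand.

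The share of each receptor among the counts of all 4 does not depend on how libraries are scaled. Notch3 made up 6.43% ± 1.52 of receptor counts in sgCTRL against 3.79% ± 0.77 in sgPrdx2 livers (SD, n = 3 each), and Notch2 58.6% ± 1.69 and 61.9% ± 1.70. In both, the 2 groups did not overlap, although the gap was small, with 4.70% in sgCTRL liver 7.1 against 4.47% in sgPrdx2 liver 3.2 for Notch3 (two-sided exact permutation tests, p = 0.1 each, the smallest that 3 livers against 3 allow, and 0.2 after adjustment over the 4 receptors). Notch1 took 29.1% ± 3.09 and 28.9% ± 3.46, and Notch4 5.87% ± 0.17 and 5.35% ± 1.15, with overlap in each (exact permutation p of 0.9 and 0.6). In counts, Notch3 exceeded Notch4 in sgCTRL livers 5.1 (275 against 223) and 7.2 (340 against 271), and was below it in liver 7.1 (221 against 277) and in all 3 sgPrdx2 livers, with 121 against 175, 192 against 254 and 81 against 119.

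**Figure D2:**
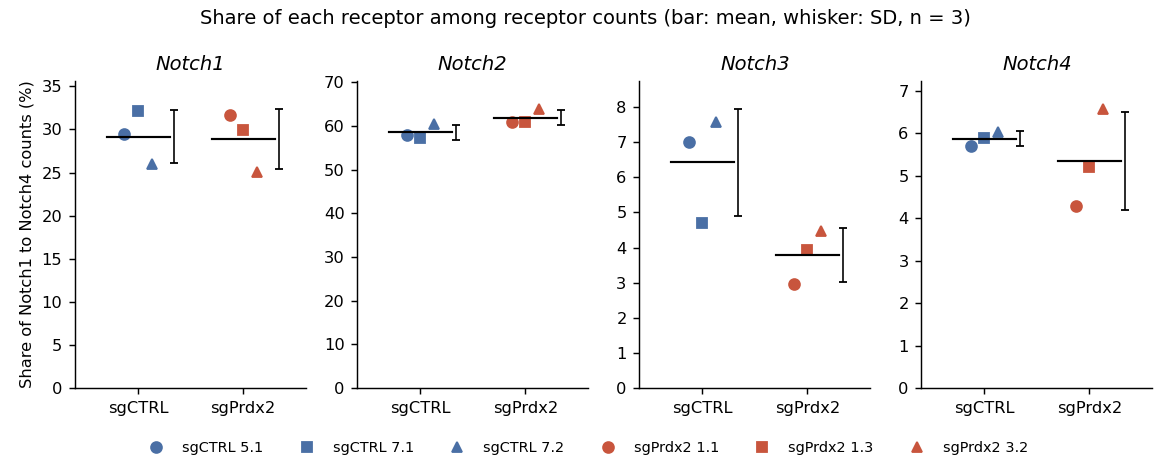
Percent of the counts of Notch1 to Notch4 taken by each receptor (vertical axes from 0, with different ranges) in each liver. Bars are means and whiskers SD (n = 3). The share of Notch3 is lower, at 2.96% to 4.47%, in the sgPrdx2 livers than in the sgCTRL livers, at 4.70% to 7.56%, and that of Notch2 is higher without overlap.

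Among the ligands, Jag1 (chr2:137081456-137116644, minus strand), the ligand of bile duct formation, was at 19.5, 19.8 and 17.9 CPM in sgCTRL and 14.8, 16.4 and 11.5 CPM in sgPrdx2 livers. The groups did not overlap, and liver 3.2 was the lowest. The log2 fold change was -0.42 (standard error 0.15, 95% interval -0.77 to -0.06), which did not pass the test across all genes (unadjusted p = 0.0269, adjusted p = 0.152, edgeR). It was -0.28 without liver 3.2 and -0.77 with library totals alone. That scaling placed the median of all genes at -0.39 and called 19.1% of them, Jag1 with an adjusted p of 0.0360 (edgeR).

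Jag2 (chr12:112907819-112929776, minus strand), a second Jagged ligand, was the least abundant member. It was at 3.43, 1.96 and 1.503 CPM in sgCTRL and 1.18, 1.68 and 1.72 CPM in sgPrdx2 livers. sgCTRL liver 5.1 was the highest, and the log2 fold change was -0.58 with it (standard error 0.34, adjusted p = 0.322) and -0.18 without it, while without sgPrdx2 liver 3.2 it was -0.66. Dll4 (chr2:119325784-119335962, plus strand), the ligand of vessel sprouting, was at 3.40, 4.65 and 5.33 CPM in sgCTRL and 4.53, 4.27 and 2.49 CPM in sgPrdx2 livers. Here too liver 3.2 alone was below the sgCTRL range, and the log2 fold change was -0.24 with it (standard error 0.27, adjusted p = 0.613) and -0.01 without it.

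Lists of cell type markers were summed in the same livers. Across all tested genes, edgeR called 3.33% in either direction and 1.54% lower. Of 15 endothelial markers, 13 had a log2 fold change below 0 and 1 was called, Pecam1 at -0.77 (adjusted p = 0.0423), with a list median of -0.39 and sums of 736 to 753 CPM in sgCTRL and 619.9 to 677 CPM in sgPrdx2 livers. Stab2 (0.27) and Egfl7 (0.07) were above 0. Of 12 cholangiocyte markers, 10 were below 0 and 2 were called, Cldn4 at -0.83 (adjusted p = 0.0394) and Prom1 at -0.76 (adjusted p = 0.0471), with a median of -0.48. Sctr (0.09) and Slc4a2 (0.03) were above 0. The cholangiocyte sums were 372 to 554 CPM in sgCTRL and 302 to 325 CPM in sgPrdx2 livers, and the keratin Krt19 was highest in sgCTRL liver 5.1 (94.2 CPM, against 32.3 and 38.4 CPM in livers 7.1 and 7.2), the liver that was also highest for Jag2. The hepatocyte list moved the other way, with all 12 markers above 0, 5 of them called, and a median of 0.96. Macrophage markers (12 of 12 below 0, 3 called, median -0.51, sums of 4212 to 4931 against 2825 to 3631 CPM) and lymphocyte markers (7 of 10 below 0, 1 called, median -0.19, sums of 99.1 to 115 against 62.4 to 84.3 CPM) also had medians below 0. The part of these cells in the levels of Notch4, Jag1, Jag2 and Dll4 was not tested.

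Among the target genes, Hes1 (chr16:30064384-30067796, plus strand), a repressor that is the classic Notch target and is also made in hepatocytes, was at 24.5, 36.99 and 29.6 CPM in sgCTRL and 35.4, 27.2 and 41.8 CPM in sgPrdx2 livers. Liver 3.2, the lowest for the receptors Notch1 and Notch2, was the highest for Hes1, and the groups overlapped widely. Hes1 has 2037 bases of exon, and in liver 3.2 genes of up to 2000 bases had a median deviation of 0.27. The part of gene length in this contrast was not tested. Hes1 had 0.20 on the log2 scale (standard error 0.20, 95% interval -0.27 to 0.67, adjusted p = 0.576), 0.06 without liver 3.2 and 0.08 with length and GC content corrected. Its sign depended on the scaling, since it was -0.19 both with library totals alone and with scaling to the 6 housekeeping genes of the study's prognostic assay, which place the median of all genes at -0.39.

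Hey1 (chr3:8663359-8667256, minus strand), a repressor induced by Notch in vessels, was at 3.79, 2.69 and 3.03 CPM in sgCTRL and 3.28, 2.59 and 2.40 CPM in sgPrdx2 livers. Heyl (chr4:123233556-123249875, plus strand), a related gene known from vascular smooth muscle, was at 6.58, 10.5 and 8.20 CPM in sgCTRL and 6.88, 6.95 and 6.23 CPM in sgPrdx2 livers. The sgPrdx2 livers lay close together for Heyl (coefficient of variation 5.91%, against 23.4% in sgCTRL livers) and overlapped with sgCTRL liver 5.1. Neither gene passed the test, with log2 fold changes of -0.20 (standard error 0.22, adjusted p = 0.596) for Hey1 and -0.33 (standard error 0.19, adjusted p = 0.324) for Heyl. Single livers moved both: Hey1 was at -0.10 without liver 3.2 and -0.0521 without sgCTRL liver 5.1, and Heyl at -0.27 without liver 3.2 and -0.14 without sgCTRL liver 7.1.

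**Figure D3:**
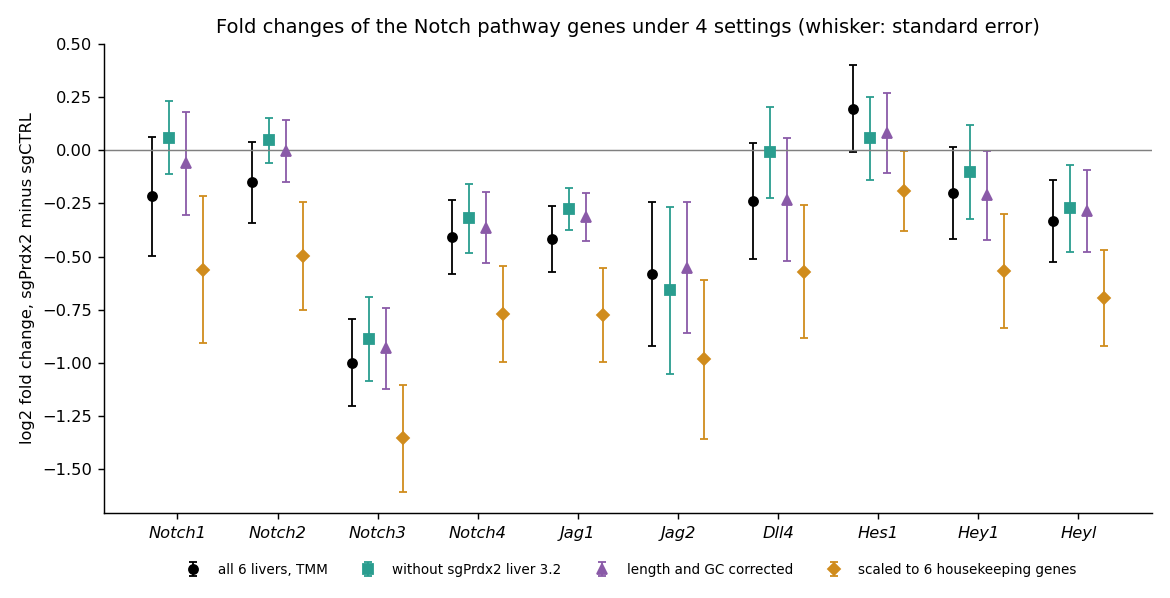
Log2 fold change (sgPrdx2 minus sgCTRL, vertical axis) of the 10 genes with all 6 livers, without sgPrdx2 liver 3.2, with transcript length and GC content corrected, and with counts scaled to 6 housekeeping genes. Points are edgeR estimates and whiskers standard errors. Notch3 lies between -1.36 and -0.89 in the 4 settings, while Notch1 and Notch2 are above 0 without liver 3.2 and Hes1 is below 0 with the housekeeping scaling.

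A wider list of 74 other pathway genes was described in the same fit, of which 65 were tested. Of these, 49 had a log2 fold change below 0 and 16 above, with a median of -0.21, against -0.02 over all tested genes. These values include liver 3.2, which was low for genes with long exon sequence. The edgeR fit called 1 of the 65, against 3.33% of all tested genes. This was Neurl1a, a ubiquitin ligase of the Neuralized family that acts on Notch ligands, which was at 5.69, 7.47 and 7.71 CPM in sgCTRL and 2.46, 3.55 and 3.16 CPM in sgPrdx2 livers. Neurl1a fell, with -1.18 on the log2 scale (standard error 0.21, adjusted p = 0.0394, edgeR). Its call held without liver 3.2 (-1.20, adjusted p = 0.0464) and was lost on leaving out any other liver (-1.31 to -1.05, adjusted p of 0.0647 to 0.152). Without sgCTRL liver 5.1 or 7.2, or sgPrdx2 liver 1.1 or 1.3, edgeR called 0 genes in all. Altogether 23 of the 65 had their sgPrdx2 livers below and 7 above all sgCTRL livers, against 17.5% and 16.7% of all tested genes. DESeq2 called 11 of the 65, and 12.4% of all 17032 genes.

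The calls of the proteases that cut the receptors after ligand binding depended on the setting. Adam10 was at 61.5, 63.4 and 59.2 CPM in sgCTRL and 45.6, 45.9 and 40.6 CPM in sgPrdx2 livers, which gave -0.48 on the log2 scale (standard error 0.12, adjusted p = 0.0638, edgeR), and DESeq2 called it (adjusted p = 0.00552). Adam17, which can make the same cut, had -0.60 (standard error 0.17, adjusted p = 0.0813, edgeR) and also no overlap. Adam17 was called by DESeq2 (adjusted p = 0.0223) and by edgeR without liver 3.2 (-0.43, adjusted p = 0.0488) and with the length and GC correction (-0.46, adjusted p = 0.0461). With housekeeping scaling and with library totals alone, both proteases were called. These 2 settings called 9.61% and 19.1% of all tested genes and placed the median of all genes at -0.39. Ncstn, a subunit of the gamma-secretase that cuts next, had -0.22 on the log2 scale (adjusted p = 0.379), whereas Psenen, another subunit, had 0.58 (adjusted p = 0.164) and was higher in each sgPrdx2 liver, with 0.33 without liver 3.2. Across the 9 cleavage genes, 5 were below and 4 above 0, 3 had their sgPrdx2 livers below and 2 above all sgCTRL livers, and edgeR called none while DESeq2 called 3. Of all tested genes, 17.5% had their sgPrdx2 livers below and 16.7% above, edgeR called 3.33% and DESeq2 12.4%.

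Receptors are modified by sugars before they reach the membrane, and the Fringe enzymes tune which ligand they answer to. Lfng was at 11.9, 10.7 and 11.7 CPM in sgCTRL and 7.93, 8.69 and 5.90 CPM in sgPrdx2 livers, which gave -0.60 on the log2 scale (adjusted p = 0.0919), whereas Rfng had 0.34 (adjusted p = 0.176) and was higher in each sgPrdx2 liver. The third Fringe, Mfng, had -0.21 (adjusted p = 0.469), and Pofut1, which adds the fucose that Fringe enzymes extend, had -0.07 (adjusted p = 0.725). None of these 4 was called by edgeR, while DESeq2 called Lfng (adjusted p = 0.0285), which was at -0.45 without liver 3.2 (adjusted p = 0.0793, edgeR). Numb, an inhibitor of the receptors, had -0.07 (adjusted p = 0.822), and all 12 genes of receptor turnover were below 0 with a median of -0.21. Of all 17032 tested genes, 8802 were below 0, with a median of -0.02. These values include liver 3.2, which was low for genes with long exon sequence. Of the 12 genes of receptor turnover, edgeR called none, while DESeq2 called the ubiquitin ligases Dtx4 (adjusted p = 0.0176) and Cbl (adjusted p = 0.0296). In edgeR these 2 had -0.53 (adjusted p = 0.0702) and -0.61 (adjusted p = 0.0903). Of all tested genes, edgeR called 3.33% and DESeq2 12.4%. The further ligand Dll1 had -0.31 (adjusted p = 0.527).

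In the nucleus, Rbpj was at 16.9, 17.2 and 12.7 CPM in sgCTRL and 14.2, 14.7 and 11.2 CPM in sgPrdx2 livers (log2 fold change -0.22, adjusted p = 0.457), and its coactivator Maml1 had -0.17 (adjusted p = 0.651). Nrarp, a target gene that feeds back on the pathway, was at 2.97, 2.74 and 2.80 CPM in sgCTRL and 2.23, 2.26 and 2.00 CPM in sgPrdx2 livers, without overlap, which gave -0.39 on the log2 scale (adjusted p = 0.227). Of other genes known as Notch targets in liver, the biliary factor Sox9 had -0.08 (adjusted p = 0.755), and Spp1, which encodes the secreted protein osteopontin, had -0.46 (adjusted p = 0.117, edgeR, and 0.0150 in DESeq2) with no overlap, at 1492 to 1707 CPM in sgCTRL and 1080 to 1258 CPM in sgPrdx2 livers. Spp1 is also made by macrophages and bile duct cells, whose marker lists are given above, and their part in its level was not tested. Hes6, a HES family member that opposes Hes1, was higher in each sgPrdx2 liver, at 52.2, 39.8 and 103 CPM against 28.7, 28.4 and 32.0 CPM, which gave 1.13 on the log2 scale (standard error 0.32, adjusted p = 0.0891, edgeR). Without liver 3.2, Hes6 was at 0.64 (adjusted p = 0.0566, edgeR). DESeq2, which called 12.4% of all tested genes, called Hes6 with all livers (adjusted p = 0.00650). Hey2 had 3 to 14 counts per liver and Hes5 had 0 counts in all 6, and both were among 9 listed genes too low to be tested.

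**Figure D4:**
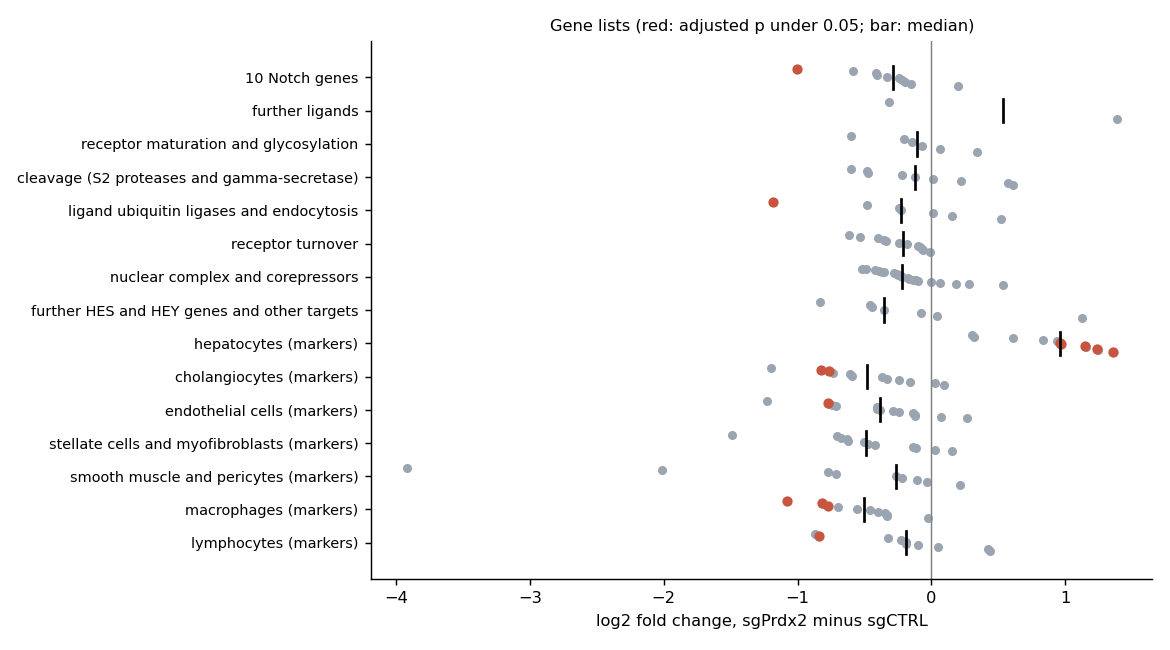
Log2 fold change (sgPrdx2 minus sgCTRL, horizontal axis) of each tested gene in the 10 Notch genes, in 7 groups of further pathway genes and in 7 lists of cell type markers. Each point is 1 gene, red where the adjusted p is under 0.05, and the black bar is the median of the list. The median is -0.29 for the 10 Notch genes, between -0.51 and -0.19 for the 6 lists of cells other than hepatocytes, and 0.96 for hepatocyte markers.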

How the data were processed

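The authors deposited raw read counts per gene and liver, without normalization. Per the labels, the submitters' processing notes name HISAT2, HTSeq and DESeq2 on GRCm38, and versions, annotation and strandedness are not given in the sources used here. The authors' deposited table of their own group comparison (fold changes and p-values) was not used. The analysis used R 4.3.3 and edgeR 4.0.16. Low genes were removed with filterByExpr (minimum count 10), libraries were scaled by TMM, and groups were compared by the quasi-likelihood test over all 17032 genes with no covariate, Benjamini-Hochberg adjustment and a threshold of 0.05. Standard errors were obtained from each fold change and its F statistic, and 95% intervals use the moderated degrees of freedom. Exon lengths, positions and GC content came from GENCODE M21 (GRCm38), with lengths for 97.1% of tested genes. The model was tested on simulated data.

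The labels number the mice without saying what the numbers stand for, and no pair of livers was a copy (lowest chi-square per degree of freedom 31.9). The alternatives were RLE, upper-quartile and housekeeping scaling, library totals alone, DESeq2 1.42.0, the filter dropped or set to 10 counts per liver, a length and GC correction (mgcv), an adjusted p under 0.1 and leaving out each liver. Settings without liver 3.2, with DESeq2 or with the correction, were also added after seeing the data. All 10 members are named, as are the called genes of the wider list and a fixed set of its genes, of which 1 is not reported here. Other genes (Cldn4, Prom1, Sctr, Slc4a2, Pecam1, Stab2, Egfl7, Myh11, Tagln, Mcam, Kcnj8, Mylk, Cspg4, Cnn1, Acta2, Des, Reln, Krt19, Alb, Hes5, Psenen, Dtx4, Cbl, Tle2) were named after their values were seen. The members and lists were chosen with earlier results of these data known.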

Additional observations from a re-analysis of the deposited data

How the results depend on the processing

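Of 160 combinations of the 10 genes with 16 alternatives, 142 kept the direction and the side of the threshold, 7 lost the call of Notch3, 2 gained a call and 9 turned the direction. The number of Notch genes called, 1 with all livers, was 3 with library totals alone (Notch3, Notch4 and Jag1), 0 in each fit that left out a liver and 0 with the length and GC correction without liver 3.2. In 4 of those 6 fits edgeR called 0 genes in all, with 3114 to 3993 at an unadjusted p under 0.05. Of the wider list, 1 gene with all livers became 11 with housekeeping scaling, 21 with library totals alone, 2 with no filter, 4 with the length and GC correction, 11 with DESeq2, 14 with DESeq2 without liver 3.2, 10 at an adjusted p under 0.1, and 0 to 2 on leaving out a liver (Adam17 and Neurl1a without liver 3.2, 0 without any other). With the length and GC correction without liver 3.2 it was 1, Tle2 in place of Neurl1a (adjusted p = 0.0567). Of all genes tested in each setting, edgeR called 3.33% with all livers, 9.61% with housekeeping scaling and 19.1% with library totals alone. It called 3.94% with no filter, 5.99% with the length and GC correction and 2.97% with that correction without liver 3.2. DESeq2 called 12.4% with all livers and 14% without liver 3.2.

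Leaving out each liver moved Notch1 between -0.41 and 0.0602 and Notch2 between -0.27 and 0.0480, and both were above 0 only without liver 3.2. Without it, DESeq2 gave 0.0609 and 0.0487 and the length and GC correction 0.16 and 0.13, and Dll4 was at 0.0172 with the correction. Hes1 was at -0.19 with housekeeping scaling and -0.19 with library totals alone. The difference in the share of Notch1 among the receptors, -0.24 percentage points, was 0.0579 per length of transcript and -1.84 to 1.69 on leaving out a liver, and that of Notch4, -0.52, ran from -1.13 to 0.0178. The causes were not tested. The shares of Notch2 and Notch3 kept their direction in these alternatives. No paired analysis was run, because the labels name no pairs and do not say what the mouse numbers stand for. With 3 livers a group, an exact test of a single value cannot go below p = 0.1, and depth did not limit the members.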
